A study of Mus musculus with 2 samples.

Results

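The V-ATPase membrane sector V0, with its accessory proteins, was followed through 10 genes: Atp6v0a1, Atp6v0a2, Tcirg1, Atp6v0b, Atp6v0c, Atp6v0d1, Atp6v0d2, Atp6v0e, Atp6ap1 and Atp6ap2. Members were the non-control probes whose gene name in the scanner files is one of these 10 symbols, which gave 12 of the 39420 probes that kept a spot once outlier spots were left out. All 10 genes had a probe, and Atp6v0d2 and Atp6ap1 had 2 each. The rule used names only and no measured value, but the members were chosen with earlier results of these data known.

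The Lamtor1 knockdown group was 1 array of RAW264.7 cells infected with a lentiviral vector for short hairpin RNA against Lamtor1. The control group was 1 array of cells of the same line, which is macrophage-like, comes from mouse and was bought from ATCC. The labels carry the same infection and limiting dilution text on both samples. Whether either sample is a single clone, and what vector the control received, are not given in the sources used here. Lamtor1 anchors the Ragulator complex on the lysosome, and the series asks about the activity of the transcription factor TFEB when Ragulator is lost. With 1 array a group there is no replicate check and no test, and every difference below describes these arrays only.

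The V-ATPase is a rotary proton pump that acidifies endosomes, lysosomes and secretory compartments. The cytosolic V1 sector hydrolyses ATP and turns a rotor, and its membrane sector V0 carries the protons across: a ring of proteolipid subunits (c and c'') turns against the a subunit, a d subunit caps the ring towards V1, and the small e subunit and the accessory proteins sit beside or inside the ring. In macrophages the pump acidifies phagosomes and lysosomes, in osteoclasts it acidifies the bone surface, and on the lysosome it also interacts with Ragulator.

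A level is the log2 of a probe's processed signal minus the log2 of its array's 75th percentile. A difference is the level in the knockdown minus that in the control. Levels of different probes are not ranked against each other, since probes bind with different strength. Brightness served to choose probes and the marker left out of a sum. Where the signals of a marker list are summed, the sum is set only against the same sum on the other array and is weighted towards bright probes. Both arrays lay on 1 slide and in 1 scan. On the knockdown array 22745 of 43020 spots (52.9%) were well above background, on the control array 22929 (53.3%), and no spot was saturated. All 12 member probes were well above background on both arrays, so no fold given for a member is a bound. Lamtor1 itself was at a level of -0.43 on the knockdown array, against 4.10 on the control array, which is 4.34% of the control signal. All 10 macrophage markers were above background on both arrays, while 8 of 11 markers of other cells were below it on both. Cd3e, Col1a2 and S100a8 were the exceptions.

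Every V0 and accessory gene was higher in the knockdown, and 5 of the 10 were at least 2-fold higher: Atp6v0d2, Atp6v0a1, Atp6v0c, Tcirg1 and Atp6v0d1. None was 2-fold lower. The difference of Atp6v0a2 (0.17) was smaller than its scanner error of 0.20, which is described below. Of all 13773 measured genes, 9.00% lay 2-fold or more higher, 8.35% lay 2-fold or more lower, and 45.7% had a difference above 0. The median difference of the 10 genes was 1.02, beside -0.05 over all measured genes. By probe, 6 of 12 were at least 2-fold higher, beside 8.46% of 21864 measured probes. Among the 10998 probes above background on both arrays and at least as bright as the dimmest member probe, 5.12% were at least 2-fold higher.

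**Figure D1:**
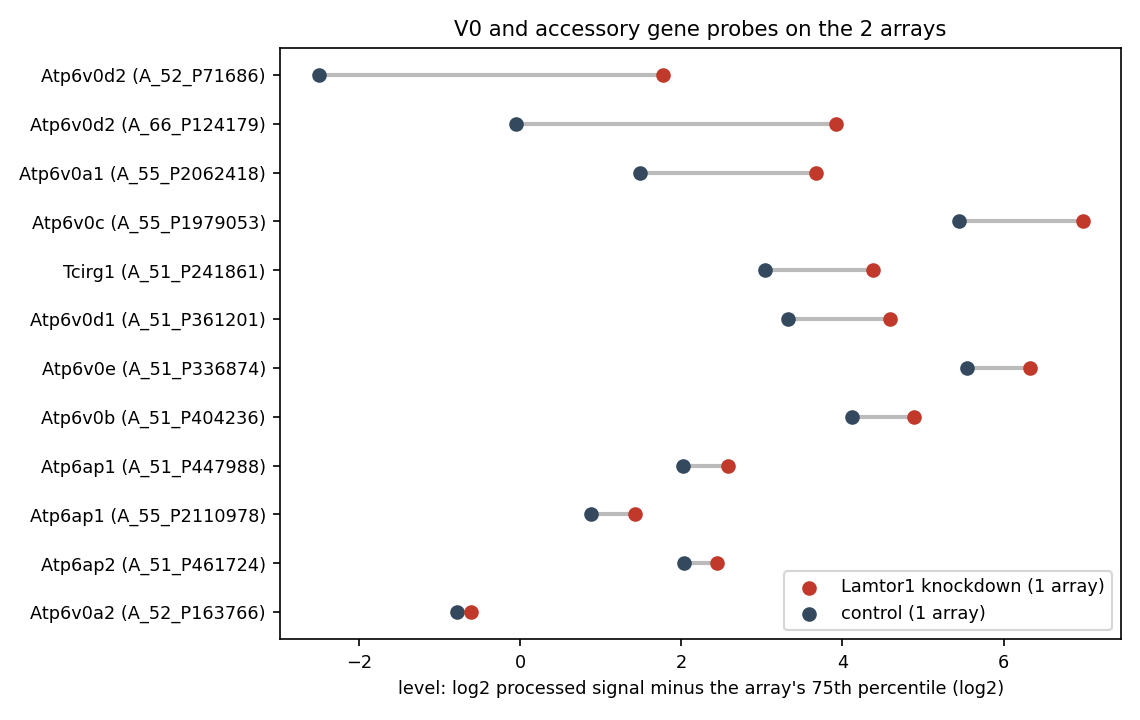
Level of each of the 12 probes of the V0 and accessory genes (horizontal axis, log2 processed signal minus the 75th percentile of the array) on the Lamtor1 knockdown array (red) and the control array (blue), 1 array each. The knockdown point lies to the right in every row, from 0.17 apart for Atp6v0a2 to 4.27 apart for a probe of Atp6v0d2.

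Error could be gauged in 2 ways. The array carried 221 probes in several spots that exceeded background on both arrays, and over the spots of such a probe the log2 difference had a median SD of 0.045 (90th percentile 0.13). The scanner's own error model put each member spot at an error of 10.0 to 10.2% of its signal, which comes to 0.20 in the log2 difference. That share hardly varied with brightness, and it is a modelled value and not one measured from repeated spots. Neither covers the spread between cultures, which 1 array a group cannot show. In bulk RNA, a change in the share of cells that express a gene and a change in RNA per cell cannot be told apart.

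The a subunit forms the stationary proton channel, and its isoforms direct the pump to different compartments. Atp6v0a1, the a1 isoform of neurons and many other cells, had a processed signal of 16004 on the knockdown array, against 3273 on the control array. Its level was 3.67 in the knockdown and 1.48 in the control, a difference of 2.19 or 4.56-fold. Its only probe lies at chr11:100924969-100925028 of mm9, on the plus strand, and 3.53% of all measured probes had a difference at least as high.

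Tcirg1 encodes the a3 isoform, which serves lysosomes and the ruffled border of osteoclasts and whose loss causes osteopetrosis. Its signal was 26119 in the knockdown and 9669 in the control. The difference was 1.33, or 2.52-fold. The probe covers 133 bases of the genome (chr19:3896678-3896810 of mm9, minus strand) with an oligo of 60 bases, so it reads across at least 1 splice junction. The oligo is shown because its bases lie side by side only after splicing. Where the junction falls in the oligo was not determined, so binding to unspliced sequence is not excluded.
Tcirg1 probe: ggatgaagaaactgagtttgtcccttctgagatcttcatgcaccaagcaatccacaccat

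Atp6v0a2, the a2 isoform of the Golgi and early endosomes, stood at the low end. Its signal was 822.5 in the knockdown and 681.1 in the control, and its levels were -0.61 and -0.78 on those arrays. The difference of 0.17 (1.13-fold) is smaller than the scanner error of 0.20, and 31.1% of measured probes were as high or higher. The remaining isoform, Atp6v0a4, which is known from kidney and inner ear and is not a member here, was not well above background on either array. The difference of Atp6v0a1 exceeded that of Atp6v0a2 by 2.02 and that of Tcirg1 by 0.86, so the isoforms of the same position in the pump did not share one difference on these arrays.

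The proteolipid ring is built from many copies of the c subunit and a c'' subunit. Atp6v0c, the gene of the c subunit, had a signal of 158491 in the knockdown and 50928 in the control. Its difference was 1.54, or 2.90-fold. The files list 3 RefSeq transcripts for its probe (chr17:24301214-24301273 of mm9, minus strand), and 2 of these are not found in the GRCm38.p6 gene table, so near-identical copies could add to this signal. Atp6v0b, the gene of c'', had 37251 in the knockdown and 20288 in the control, a difference of 0.78 or 1.71-fold. Atp6v0e, which encodes a small membrane subunit, had 100969.5 in the knockdown and 54742 in the control, a difference of 0.78 or 1.72-fold. These ring-side subunits were thus all higher, with Atp6v0c alone past 2-fold. Atp6v0e2, the paralog of Atp6v0e that is not a member, had levels of 2.83 in the knockdown and 2.37 in the control, a difference of 0.46.

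The d subunit links the ring to the rotor shaft, and mice have a ubiquitous form, d1, and a form first known from osteoclasts, kidney and lung, d2. Atp6v0d2 had the highest difference of the 10 genes. Its brighter probe (A_66_P124179, chr4:19805367-19805426 of mm9, minus strand) read 19041 in the knockdown and 1128 in the control, with levels of 3.92 and -0.05 on those arrays. Its other probe (A_52_P71686, chr4:19804304-19804363) read 4286 in the knockdown and 207.3 in the control, with levels of 1.77 and -2.50. The differences were 3.98 and 4.27, or 15.8-fold and 19.3-fold, and 0.919% and 0.700% of measured probes were as high. Both probes of the gene thus gave the same picture from separate sites of the transcript.

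Atp6v0d1 had 30321 in the knockdown and 11783 in the control, a difference of 1.26 or 2.40-fold, at chr8:108048778-108048837 of mm9 on the minus strand. The difference of Atp6v0d2 was larger by 2.71, a further 6.56-fold. The brighter Atp6v0d2 probe and the Atp6v0d1 probe fall on similar stretches of the paralogs. They are printed to show how far the probes differ, with capitals for the mismatches in the best placement without gaps. Of 34 bases placed on each other 24 were identical and 10 differed.
Atp6v0d2 probe A_66_P124179: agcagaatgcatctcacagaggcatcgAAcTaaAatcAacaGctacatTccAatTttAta
Atp6v0d1 probe A_51_P361201: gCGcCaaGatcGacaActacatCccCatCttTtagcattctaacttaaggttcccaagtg

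The accessory proteins were higher by less than 2-fold. Atp6ap1 encodes Ac45, a glycoprotein that takes part in assembly and sorting of the pump. Its brighter probe (A_51_P447988) read 7473 in the knockdown and 4745 in the control, and its other probe (A_55_P2110978) read 3383 in the knockdown and 2157 in the control. The differences were 0.56 and 0.55, or 1.47-fold and 1.46-fold, so the probes differed from each other by less than the spot noise. Atp6ap2, the gene of the (pro)renin receptor, read 6849 in the knockdown and 4790.3 in the control. Its difference was 0.42, or 1.33-fold, about 2.04 times the scanner error.

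Ordered from the highest difference, the genes ran Atp6v0d2, Atp6v0a1, Atp6v0c, Tcirg1, Atp6v0d1, Atp6v0e, Atp6v0b, Atp6ap1, Atp6ap2 and Atp6v0a2. Only 3 of the steps between neighbours were larger than the scanner error of 0.29 in such a step: those after Atp6v0d2 (1.79), after Atp6v0a1 (0.65) and after Atp6v0d1 (0.48). The other steps were smaller, among them those between Tcirg1 and Atp6v0d1 (0.07) and between Atp6v0e and Atp6v0b (0.0066). The order of those neighbours is not resolved.

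**Figure D2:**
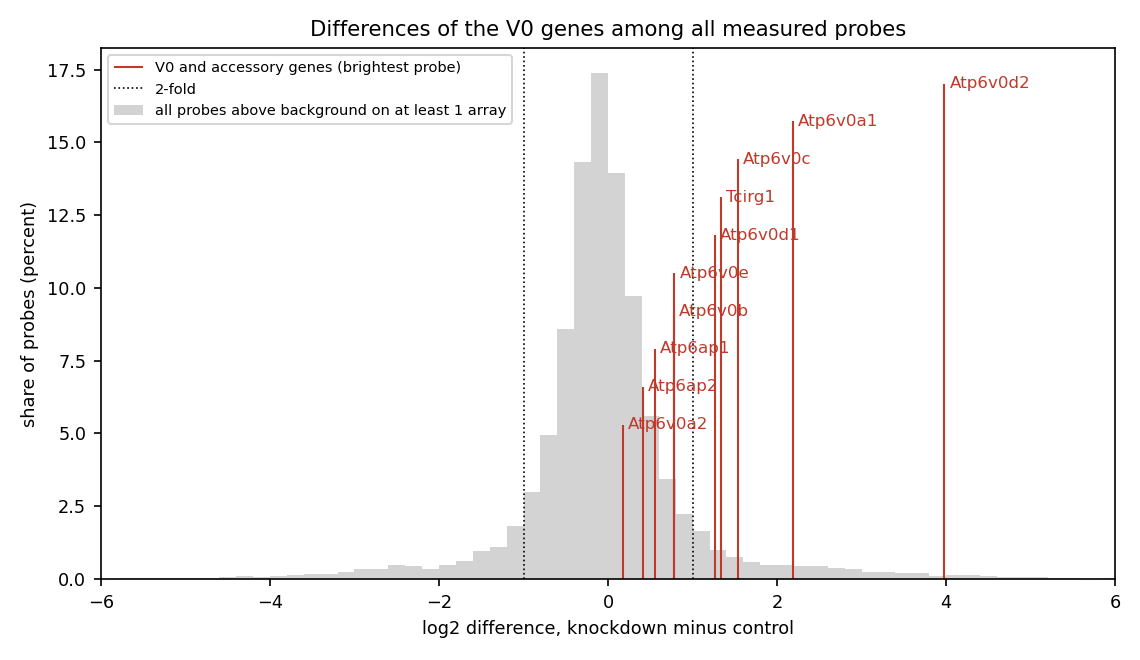
Grey bars give the share of all 21864 measured probes (vertical axis, percent) by log2 difference (horizontal axis, knockdown minus control), with 66 probes beyond the plotted range. Red lines mark the brightest probe of each V0 or accessory gene, their heights serve only to separate the names, and dotted lines mark 2-fold. All 10 lines lie above 0, and 5 lie past the upper 2-fold line.

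TFEB and its relatives bind E-box sequences, and the lysosomal version of the site has the letters CACGTG at its core, usually with T before them. RefSeq promoter windows of the GRCm38.p6 build, which run from 250 bases before an annotated start to 50 after, were found for 8 of the 10 genes. Atp6v0a2 and Atp6v0d2 had no entry. CACGTG, which reads the same on both strands, occurred in the windows of 3 of the 8 genes, Atp6v0b, Atp6v0d1 and Atp6v0e. It occurs in windows of 8.09% of the 27025 genes in the table and in 7.15% of its 32851 windows. TCACGTG, searched on both strands and containing the shorter motif, occurred in the same 3 genes and in windows of 4.29% of all genes (3.77% of windows).

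The stretches that hold the matches are shown from 100 bases before the start to 20 after it, with CACGTG in capitals, to show how near to the start the matches lie.
Atp6v0b (chr4:117887310-117887429, minus strand): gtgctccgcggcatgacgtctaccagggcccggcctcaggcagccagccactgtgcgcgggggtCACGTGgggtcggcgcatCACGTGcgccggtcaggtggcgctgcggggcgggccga
Atp6v0d1 (chr8:105566045-105566164, minus strand): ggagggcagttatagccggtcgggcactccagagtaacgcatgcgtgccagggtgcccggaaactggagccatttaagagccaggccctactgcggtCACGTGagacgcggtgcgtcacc
Atp6v0e (chr17:26676296-26676415, plus strand): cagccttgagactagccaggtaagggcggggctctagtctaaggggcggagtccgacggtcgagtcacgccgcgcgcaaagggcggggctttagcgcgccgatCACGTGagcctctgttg

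Counting the first transcribed base as 1, the Atp6v0b matches begin at -36 and -18, the Atp6v0d1 match at -3 and the Atp6v0e match at 4. A T precedes all 4 matches, and in Atp6v0d1 and Atp6v0e an A also follows. The genes with a match had differences of 0.78 (Atp6v0b), 1.26 (Atp6v0d1) and 0.78 (Atp6v0e). Those with a window but no match had 2.19 (Atp6v0a1), 1.54 (Atp6v0c), 1.33 (Tcirg1), 0.56 (Atp6ap1) and 0.42 (Atp6ap2). The genes with a match thus lay inside the range of those without one. Over the array, 9.07% of 706 measured genes with TCACGTG in a window were at least 2-fold higher, beside 8.94% of 9906 without it, with medians of 0.07 and -0.05. At least 2-fold lower were 4.82% of the genes with it and 8.53% of those without. For CACGTG, 8.71% of 1205 measured genes with it were at least 2-fold higher, beside 8.98% of 9407 without it, with medians of 0.0057 and -0.05. At least 2-fold lower were 6.89% of the genes with CACGTG and 8.46% of those without. A match in these windows is a description of letters and shows no binding.

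**Figure D3:**
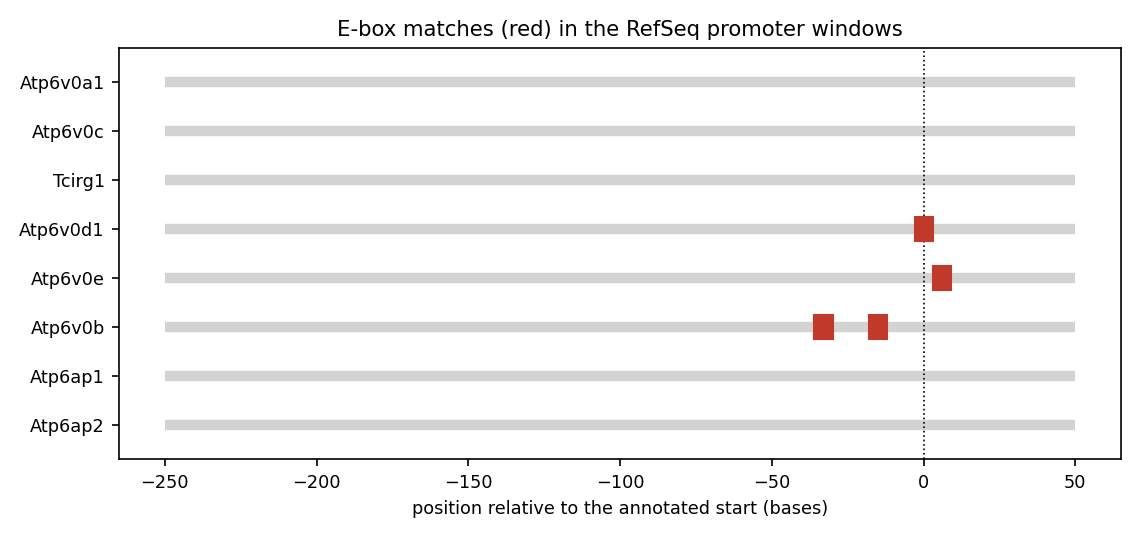
Promoter windows of the 8 V0 and accessory genes with a RefSeq entry (grey, horizontal axis in bases from the annotated start, 250 before to 50 after), with CACGTG matches drawn in red to scale. Genes run from the highest difference at the top, Atp6v0c and Tcirg1 have 3 windows each drawn on 1 line, and the 4 matches lie between -36 and 9.

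The V1 sector, the ATP-hydrolysing part of the same pump, was higher as well. Of 13 V1 genes 9 were measured, all above background on both arrays, and 6 of the 9 were at least 2-fold higher with none 2-fold lower. Their median difference was 1.06, beside 1.02 for the V0 and accessory genes, and they ran from 0.70 to 1.72. Atp6v1c1, Atp6v1g1 and Atp6v1d had differences of 1.72, 1.58 and 1.54. The V0 genes spread more widely than the V1 genes, from 0.17 to 3.98, a contrast for which 1 array a group allows no test.

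Assembly factors and partners of the pump were mostly within 2-fold, with 2 of 12 at least 2-fold higher, none lower and a median of 0.17. Wdr7, a member of the complex that joins V1 to V0, was not well above background on the control array, and its difference was bounded at 3.34-fold or more. Vma21, the chaperone of V0 assembly in the endoplasmic reticulum, had a difference of 1.05 at its brightest probe, but its other probes gave 0.67, 0.19 and -0.60. Tbc1d24 had a difference of 0.63.

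Ion transporters that share endosomal and lysosomal membranes with the pump were mixed. Of 11 genes 3 were at least 2-fold higher (2 when a gene not above background in the control is counted by its bound), 1 was 2-fold lower and the median was 0.66. Clcn7, the lysosomal chloride and proton exchanger, had a difference of 1.95. Clcn3, a related exchanger, had -1.28, and its other probe gave -1.16. Tpcn2, a lysosomal cation channel, was not well above background on the control array, and its difference was bounded at 1.21-fold or more. The mitochondrial ATP synthase, the other rotary ATPase of the cell, served as a contrast. None of its 14 measured genes reached 2-fold, their median was -0.07, and Atp5d, Atp5o and Atp5k had -0.39, -0.27 and 0.18.

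**Figure D4:**
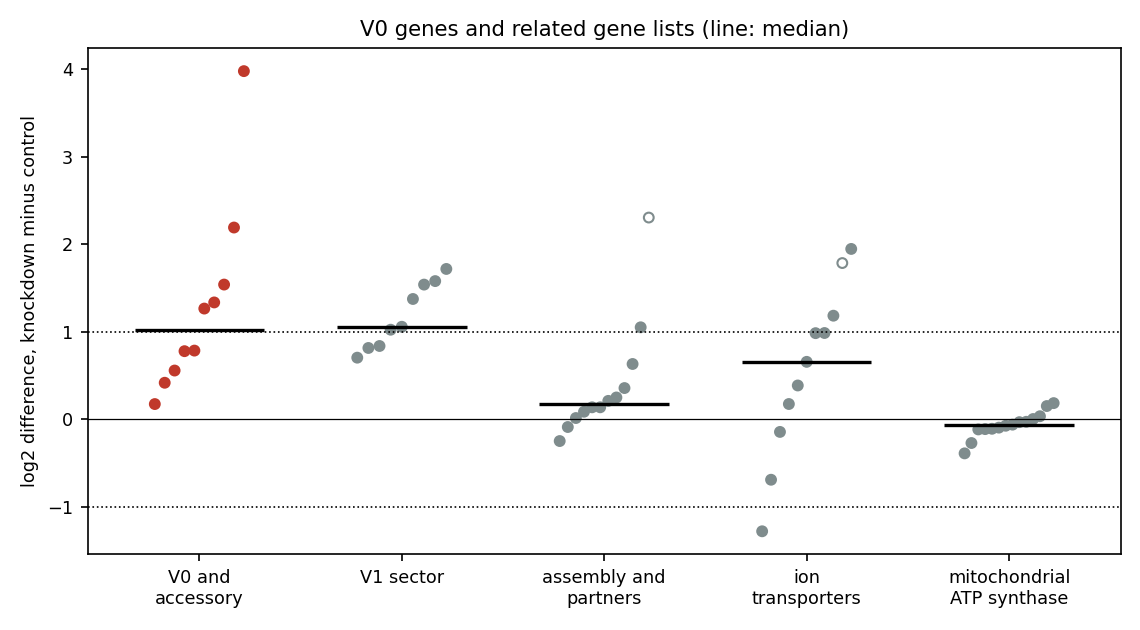
Log2 difference (vertical axis, knockdown minus control) of each measured gene in the V0 and accessory set (red) and in 4 related lists (grey), with a black line at each median and dotted lines at 2-fold. Open points are genes above background on 1 array only, plotted at their plain difference. The V0 and V1 genes all lie above 0, while the 14 ATP synthase genes lie between -0.39 and 0.18.

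Since Atp6v0d2 and Tcirg1 are also genes of osteoclasts, which macrophages can form, the osteoclast markers stand beside them here. Of 10 markers 9 were measured, with 2 past 2-fold upwards, 4 past it downwards (3 by bounds) and a median of -0.85. Ctsk, the collagen-degrading protease of osteoclasts, had levels of 5.56 in the knockdown and 1.30 in the control, a difference of 4.26. Itgb3, the beta3 integrin, had a difference of 2.80. Car2, the carbonic anhydrase that supplies protons to the pump, had levels of -1.35 in the knockdown and 2.15 in the control, a difference of -3.50. Mmp9 was not well above background on either array. The summed signal of the measured markers was at a log2 level of 5.76 in the knockdown and 3.85 in the control. On the knockdown array Ctsk had the highest signal of these markers, but on the control array Car2 was above it (2.15 against 1.30). Without Ctsk, the sum of the other 8 was lower in the knockdown, at 2.81 against 3.58 in the control. Leaving out that gene was chosen after the values were seen. The part of osteoclast-like expression in the V0 differences was not tested. Of the 10 macrophage markers 2 were past 2-fold upwards and 1 downwards, and their median was -0.07. Csf1r, named here after its values were seen, is counted as within 2-fold from its brightest probe (-0.82), while its other probes gave -1.34 and -1.25. Adgre1 had a difference of -1.56, Fcgr3 of 1.52 and Cd68 of 1.22, and the summed signal of the 10 was at 8.49 in the knockdown and 8.69 in the control. Csf1r had the highest level of the 10 on the control array (7.47), while on the knockdown array Tyrobp was above it (7.10 against 6.65). Without Csf1r, the sum of the other 9 was at 8.02 in the knockdown and 7.88 in the control.

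The member values moved little with the processing. Over 10 ways of processing the arrays, each of the 5 genes past 2-fold stayed past it. Each of the 5 others stayed under it, all on the side of higher in the knockdown. Several of these settings could hardly move the member values. The filters on dim probes left them as they were, since all member probes were above background on both arrays. The median over a gene's probes could move only Atp6v0d2 and Atp6ap1. The deposited value table holds the same intensities rounded. Scaling by the median, or by spots above background on both arrays, shifted all genes by the same amount. Atp6v0d2 ranged from 15.1-fold to 17.4-fold, Atp6v0a1 from 4.43-fold to 4.87-fold, and Atp6v0a2 from 1.09-fold to 1.20-fold.

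**Figure D5:**
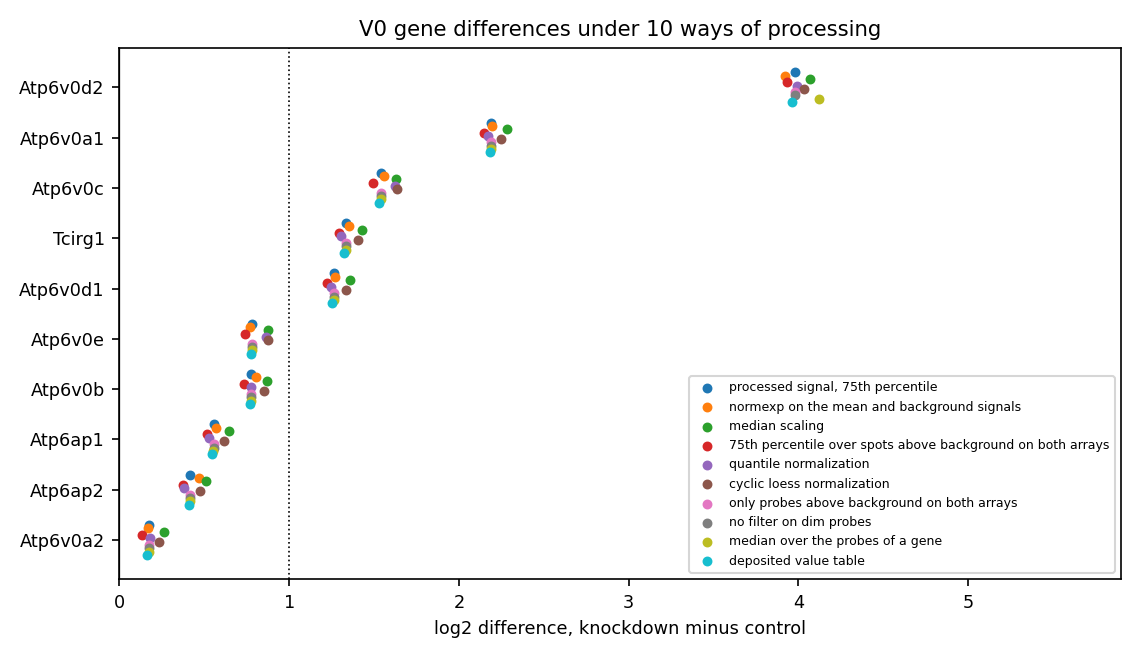
Log2 difference (horizontal axis, knockdown minus control) of each V0 or accessory gene (rows) under 10 ways of processing (colours, offset vertically for legibility), with a dotted line at 2-fold. Atp6v0d1, the lowest of the genes past 2-fold, runs from 1.22 to 1.36, and Atp6v0e, the highest of the rest, from 0.74 to 0.88.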

How the data were processed

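RNA of 1 Lamtor1 knockdown and 1 control sample was labelled with Cy3 on 1-colour arrays. The deposited scanner files give each spot's intensity on a linear scale, and the submitters' processing notes name Agilent Feature Extraction 10.7.3.1 as the software. Per the file headers, spatial and multiplicative trends were corrected, local background was not subtracted, and probe positions are on mm9. The deposited value table holds the same intensity rounded, at 0.995 to 1.005 times the scanner value. From the log2 of the processed intensity that of the array's 75th percentile over all non-control spots was subtracted. Spots flagged as outliers on either array (177 on the knockdown and 162 on the control array) were then left out on both. Repeated spots were averaged, and a gene took its brightest probe. Genes counted as measured where 1 array or both had that probe flagged well above background. RefSeq genes of GRCm38.p6 named 26055 probes through their accession, 3195 through their symbol and 930 through an unambiguous older symbol, while 9249 stayed unnamed. This count precedes the removal of outlier spots, which left 9 probes with no spot. The members were found by the files' own gene names. For a gene above background on 1 array, the dim side was set to the probe's own signal or to the lowest flagged signal of that array, whichever was higher, which gives a bound. The steps were run on a simulated array, made from the control array with added spot noise and shifts well past the 2-fold threshold. That run checks the code only, since it holds no spread between cultures. Members and lists were chosen with earlier results of these data known. All members are named, with up to 3 genes of each list by size of difference. The 9 alternatives are in the closing section. Python 3.11.15 and limma 3.58.1 in R 4.3.3 were used.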

Additional observations from a re-analysis of the deposited data

How the results depend on the processing

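The 9 alternatives were normexp background correction, 4 other scalings, 2 filters on dim probes, the median over a gene's probes and the deposited value table. Under each of them 5 of the 10 V0 and accessory genes were at least 2-fold higher and 0 were 2-fold lower, and 6 of 12 probes were at least 2-fold higher where probes were counted. As stated above, several of these settings could hardly move the member values. The median over the 10 genes was 1.11 with cyclic loess and 1.12 with median scaling, a shift larger than the spot noise, and relative to the median of all genes it ran from 1.06 to 1.08. Counts over the whole array depended more on the settings. Probes at least 2-fold higher numbered 1070 with normexp and 1121 where background had to be exceeded on both arrays, beside 1850. Probes at least 2-fold lower numbered 842 with normexp, 1027 with that stricter filter and 2945 with no filter, beside 1827. The stricter filter tests fewer probes and the absent filter tests more. Normexp was run with an offset of 50 added to every corrected signal, which the other settings do not have. The cause of the normexp counts was not tested. No paired analysis was possible because each group has 1 array. The number of arrays limits the precision, and 8 of the 10 genes rest on 1 probe each.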
